A study of Mus musculus with 6 samples.

Results

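F-box, TRIM, ASB and Kelch proteins choose the substrates of ubiquitin ligases, and 144 of their genes were followed in C2C12 myotubes given Sardomozide or the solvent DMSO. The genes were taken by symbol (Fbxo, Fbxl, Fbxw, Trim, Asb, Klhl or Kbtbd followed by a number) from the 24411 symbols in the counts. The pattern matched 210 symbols. The 5 muscle atrophy ligases Fbxo32, Fbxo30, Fbxo40, Fbxo21 and Trim63 were left out, and of the other 205 symbols 144 had at least 10 counts in at least 3 libraries. Of these 144 genes, 142 passed the filter of the test. Among them is Fbxl12os, an antisense gene that the pattern took in and that encodes no adaptor (log2 fold change 0.33 ± 0.485, not called).

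C2C12 is an immortalised mouse myoblast line, of wild-type genotype per the labels, whose cells fuse into multinucleated myotubes when serum is lowered. Differentiated cultures in horse serum received 10 µM Sardomozide dihydrochloride, an inhibitor of the polyamine enzyme AMD1, or DMSO, for 72 h in either case, with 3 libraries per group. Whether the 3 came from separate cultures is not stated in the labels, so the spread behind each p-value may be technical alone. The titles say myotubes and the cell type field says myoblasts. In the counts, the muscle actin gene Acta1 stood at 4710 to 4910 CPM with Sardomozide and 4630 to 4990 CPM with DMSO, where CPM are counts scaled to the TMM-adjusted library size. The desmin gene Des stood at 2850 to 3090 CPM with Sardomozide and 2930 to 3080 CPM with DMSO. Acta1 and Des were among the 19 of 24 tested muscle markers that were not called. Of the 24, 2 rose (Casq2 and Myog) and 3 fell (Myh8, Myh2 and Myh7), which is 20.8% called, against 16.3% of all genes. Library totals were 30820423 to 36709804 counts with Sardomozide and 25496323 to 32108033 with DMSO.

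Adaptors of this kind bridge a substrate to a shared catalytic core. F-box proteins bind SKP1 on the cullin CUL1, Kelch proteins with a BTB domain bind CUL3 directly, and ASB proteins use a SOCS box to bind elongins B and C on CUL5 with the RING protein RNF7. Most TRIM proteins carry their own RING domain and act as ligases without a cullin. In muscle, several members are known for holding sarcomere proteins in place or removing them, and mutations in human KLHL40 and KLHL41 cause nemaline myopathy.

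The share of adaptor genes that differed between Sardomozide and DMSO was near that of all genes, and slightly below it. Of 142 tested, 6 rose, 12 fell and 124 did not pass at an adjusted p under 0.05 (quasi-likelihood test of edgeR, Benjamini-Hochberg over all genes). That is 12.7% of the members, against 16.3% of all 13076 genes tested. Rises made up 4.23% of members, against 7.88% of all genes, and falls 8.45%, the same share as the 8.45% of all genes. The median log2 fold change of the members was −0.0398, against −0.000823 over all genes, and the median of its absolute size was 0.103, against 0.118. The groups did not overlap for 44 members (31.0%), against 33.5% of all genes. Summed over the 144 genes, the level was 6510, 6350 and 6500 CPM in the Sardomozide libraries and 6390, 6510 and 6480 CPM in the DMSO libraries. These sums overlapped between the groups. Without Sardomozide replicate 3 the rises numbered 3, and without DMSO replicate 2 the falls numbered 7. Over all genes, 620 rises and 706 falls were left without DMSO replicate 1, and 672 rises without DMSO replicate 3.

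**Figure D1:**
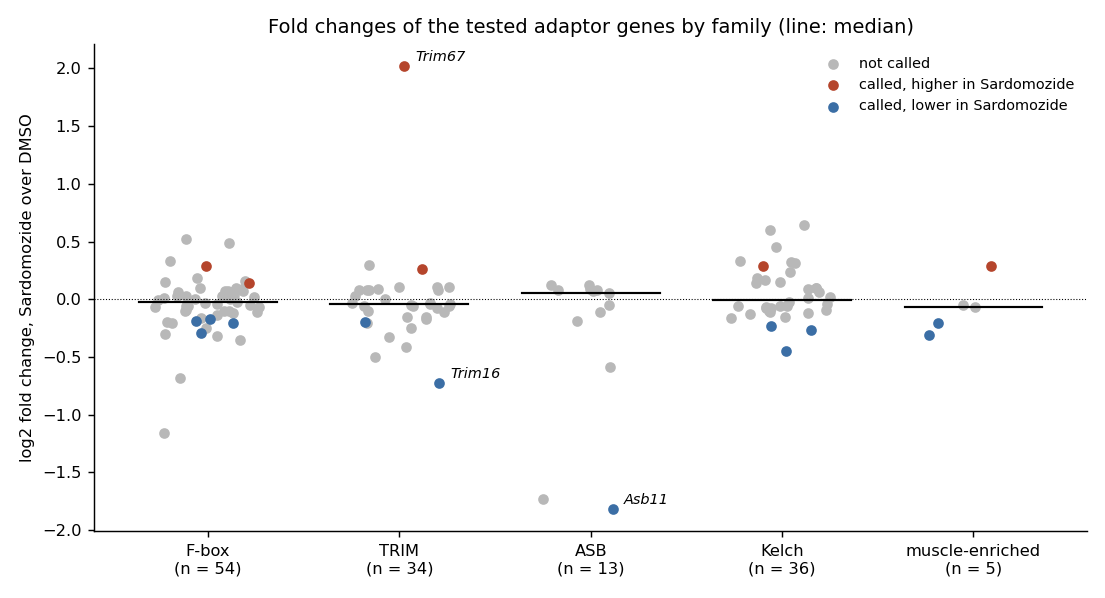
Log2 fold change (Sardomozide over DMSO, vertical axis) of each tested adaptor gene, by family, with called genes in colour and a line at the family median. Most genes lie close to 0, and the called genes past 1.5-fold are Trim67, Trim16 and Asb11.

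Fold changes and their standard errors spread more widely among genes at low levels. Among 94 members with a mean of at least 10 CPM, log2 fold changes ran from −0.73 for Trim16 to 0.33 for Klhl28, which did not pass (adjusted p = 0.0547), and the median standard error was 0.0646. Of these, 16% were called, against 20.1% of all genes at that level. Among 48 members under 10 CPM, log2 fold changes ran from −1.82 to 2.02 with a median standard error of 0.186, and 6.25% were called, against 7.61% of all genes at that level. A fold of at least 1.5 was reached by 1 called member that rose (Trim67) and 2 that fell (Trim16 and Asb11). Trim67 met the count limit only through its Sardomozide libraries. Over all genes, 0.925% rose and 1.33% fell by that much, 2.26% in all.

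**Figure D2:**
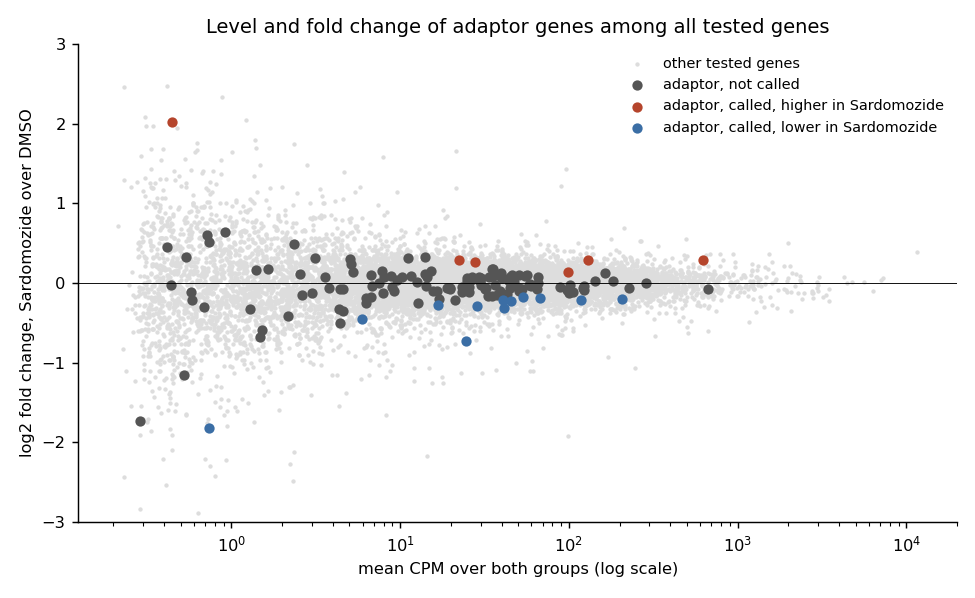
Mean CPM over both groups (horizontal axis, log scale) against log2 fold change (Sardomozide over DMSO) for all tested genes in pale grey and the adaptors in dark grey or, where called, in colour. The widest adaptor fold changes, of Trim67 (2.02) and Asb11 (−1.82), lie near or below 1 CPM, and Trim16 (−0.73) stands apart at higher levels.

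The muscle-enriched members Klhl41, Klhl40, Asb2, Trim54 and Trim72 were described apart from their families. Klhl41 rose, Klhl40 and Asb2 fell, and Trim54 and Trim72 did not pass. Of the 5, 60% were called, against 16.3% of all genes and 20.1% of all genes at or above 10 CPM, where all 5 lie. The 5 were chosen with earlier results of these data known. The same 3 calls were made under each of the 14 alternative settings and fits without a library. Per kilobase of exon, Trim72 and Klhl41 had the highest levels of all members, at 291 and 271 CPM per kb with Sardomozide and 305 and 222 with DMSO. Trim54 stood at 61.0 CPM per kb with Sardomozide and 63.3 with DMSO. Klhl40 stood at 43.5 with Sardomozide and 50.4 with DMSO, and Asb2, the lowest of the 5, at 10.4 with Sardomozide and 12.9 with DMSO.

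The promoters of Klhl41 and Klhl40 are shown because these related genes, whose products both stabilise nebulin, moved in opposite directions. Each window holds 250 bases before and 50 after the RefSeq start (GRCm38.p6, plus strand), at chr2:69669870-69670169 for Klhl41 and chr9:121777357-121777656 for Klhl40. Capitals mark the E-box letters CAGCTG, a core that myogenic factors bind, and the MEF2 motif.
Klhl41: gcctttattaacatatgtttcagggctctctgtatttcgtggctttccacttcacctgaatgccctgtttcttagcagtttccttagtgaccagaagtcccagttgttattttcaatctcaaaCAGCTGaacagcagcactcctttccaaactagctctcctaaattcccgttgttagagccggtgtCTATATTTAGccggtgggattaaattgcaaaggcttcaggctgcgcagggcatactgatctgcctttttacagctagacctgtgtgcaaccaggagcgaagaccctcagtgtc
Klhl40: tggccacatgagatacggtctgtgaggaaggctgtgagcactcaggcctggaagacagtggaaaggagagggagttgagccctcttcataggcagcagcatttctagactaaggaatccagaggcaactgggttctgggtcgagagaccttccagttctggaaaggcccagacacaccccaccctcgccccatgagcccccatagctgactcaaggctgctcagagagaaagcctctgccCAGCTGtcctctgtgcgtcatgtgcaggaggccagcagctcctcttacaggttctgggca
Both windows hold 1 CAGCTG, at base 124 of the Klhl41 window and base 241 of the Klhl40 window, counted from its 5′ end. CAGCTG reads the same on both strands and occurs in 16.3% of 32817 promoter windows of this length. The MEF2 motif, searched on both strands, was found at base 188 for Klhl41, without overlap with the E-box, and is absent from the Klhl40 window. It occurs in 183 of all windows (0.558%). Of the other muscle-enriched genes, Trim54 and 1 of the 2 Asb2 windows also hold CAGCTG, and the Trim72 window does not. Among called members outside this group, CAGCTG was in windows of Fbxo17, which rose, and Fbxl17, Klhl34 and Klhl5, which fell. It was not in those of Asb11, Fbxo18, Fbxo6, Fbxw11, Klhl9 and Trim67. CATTCC, the M-CAT element, was found on either strand 2 times for Trim54 and not in the other muscle-enriched windows, against 14.7% of all windows. The FOXO letters GTAAACA, searched on both strands, were in none of them and in 3.65% of all windows. Outside the muscle-enriched group, the Klhl9 window holds CATTCC and the Trim67 window GTAAACA. These matches are letters in a window and not shown to be bound. The Klhl41 and Klhl40 pair was picked after its values were seen, and the part of any motif in the changes was not tested.

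Klhl41 (chromosome 2, 69670120 to 69684230, GRCm38) encodes a Kelch protein that acts as a chaperone of nebulin. It had 721, 659 and 677 CPM in the Sardomozide libraries, against 550, 575 and 556 CPM in the DMSO libraries. All 3 Sardomozide libraries were above all DMSO libraries. Klhl41 rose by 22.4% (log2 fold change 0.29 ± 0.0445, standard error; edgeR adjusted p = 0.000126).

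Klhl40 (chromosome 9, 121777607 to 121783818), whose product protects nebulin and leiomodin-3 from breakdown, had 111, 108 and 108 CPM in the Sardomozide libraries, against 118, 131 and 130 CPM in the DMSO libraries. The groups did not overlap, and DMSO replicate 1 lay nearest to the Sardomozide libraries. Klhl40 fell, with a log2 fold change of −0.21 ± 0.0475 (edgeR adjusted p = 0.00381). The ratio of Klhl41 to Klhl40 counts, a pair singled out after its values were seen, was 6.49, 6.13 and 6.28 in the Sardomozide libraries and 4.68, 4.4 and 4.28 in the DMSO libraries. Library scaling does not enter this ratio.

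Asb2 (chromosome 12, 103321142 to 103356001), whose product directs filamins to the proteasome, had 38.3, 36.7 and 35.8 CPM with Sardomozide and 43.2, 50.3 and 43.4 CPM with DMSO. DMSO replicate 2 was the highest library, and all DMSO libraries were above all Sardomozide libraries. Asb2 fell by 0.31 ± 0.0664 on the log2 scale (edgeR adjusted p = 0.0032).

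Trim54, or MuRF3, binds microtubules and the Z-line, and Trim72, or MG53, patches torn muscle membranes. Trim54 had 94.7, 79.0 and 88.9 CPM with Sardomozide and 87.5, 95.3 and 89.9 CPM with DMSO. Trim72 had 678, 600 and 670 CPM with Sardomozide and 652, 692 and 700 CPM with DMSO. For both genes the groups overlapped, with Sardomozide replicate 2 the lowest library, and neither passed (log2 fold changes −0.05 ± 0.059 and −0.07 ± 0.0494, edgeR adjusted p = 0.589 and 0.377). Without Sardomozide replicate 2 the log2 fold change of Trim54 was 0.01. Exons of Trim54 and Trim72 are overlapped on the opposite strand by the annotated genes Gm15469 (382 of 1436 exon bases) and Gm15533 (617 of 2233). Klhl40 shares 540 exon bases with Gm47108 in the same way. Whether strand was used in counting is not given in the sources used here, so reads of such partners cannot be told apart.

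Markers of muscle differentiation moved in both directions beside these genes. Of the 24 tested (20.8% called, against 16.3% of all genes), 2 rose, Casq2 and Myog, and 3 fell, the myosin heavy chain genes Myh8, Myh2 and Myh7, with 4 rises without DMSO replicate 2 and 6 falls without Sardomozide replicate 1. The summed level of the list was 37900, 38100 and 34400 CPM with Sardomozide and 34300, 36600 and 34900 CPM with DMSO. In bulk RNA, fewer cells of a type and less RNA per cell cannot be told apart, and the part of muscle content in the changes of the muscle-enriched genes was not tested.

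**Figure D3:**
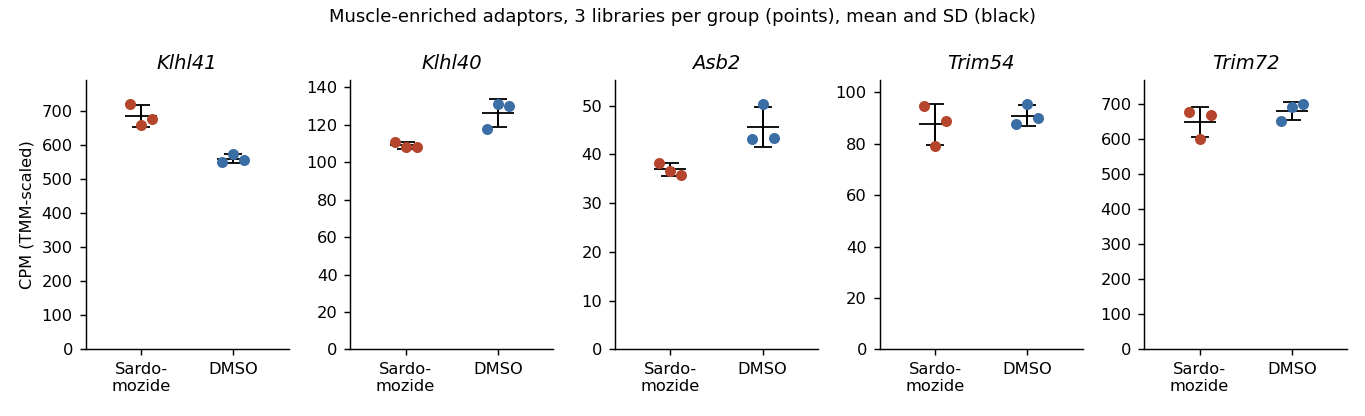
CPM of the 5 muscle-enriched adaptor genes in each library (points, vertical axis from 0), with mean and SD over 3 libraries in black. Sardomozide libraries lie above DMSO for Klhl41 (686 against 560 CPM on average), below it for Klhl40 (109 against 126) and Asb2 (36.9 against 45.6), and overlap it for Trim54 and Trim72.

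Of 34 tested TRIM genes other than Trim54 and Trim72, 2 rose, 2 fell and 30 did not pass (11.8% called, against 16.3% of all genes; family median log2 fold change −0.0493). The summed level of the 36 kept genes was 1520, 1520 and 1540 CPM with Sardomozide and 1580 CPM in each DMSO library. The Sardomozide sums lay below the DMSO sums. Within them the called genes Trim8 and Trim16 averaged 192 and 18.4 CPM with Sardomozide and 220 and 30.5 CPM with DMSO. The rises numbered 1 without Sardomozide replicate 1 and 0 without Sardomozide replicate 3 or DMSO replicate 3.

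Trim16 (chromosome 11, 62820231 to 62850808) had the smallest adjusted p of all members. It encodes a B-box protein without a RING domain that takes part in the autophagy of damaged lysosomes. Trim16 had 18.6, 18.4 and 18.2 CPM in the Sardomozide libraries, against 31.6, 30.6 and 29.4 CPM in the DMSO libraries. The 3 libraries of each group lay close together and far from the other group. The gene fell by 39.7% (log2 fold change −0.73 ± 0.073, edgeR adjusted p = 9.75e-07). Trim16 shares 237 exon bases on the same strand with Fbxw10, a gene with at most 11 counts in any library. Trim16 itself had 568 to 677 counts with Sardomozide and 803 to 982 with DMSO. How reads from the shared bases were assigned is not given, and their part in the fall was not tested.

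Trim8, a RING protein that binds SOCS1, had 194, 187 and 194 CPM with Sardomozide, against 216, 216 and 229 CPM with DMSO. It fell by 0.20 ± 0.0425 on the log2 scale without overlap (edgeR adjusted p = 0.00252). Trim11, a ligase that helps to clear misfolded proteins, averaged 30.4 ± 1.84 CPM with Sardomozide and 25.4 ± 1.1 CPM with DMSO (SD, n = 3 each), a rise of 0.26 ± 0.0725 on the log2 scale (edgeR adjusted p = 0.0174). Its call was lost without Sardomozide replicate 1 or 3 or DMSO replicate 3.

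Trim67, known from the mouse brain as a partner of the netrin receptor DCC, was barely detected. It had 24, 23 and 25 counts in the Sardomozide libraries, against 7, 8 and 0 counts in the DMSO libraries, where a count of 0 allows up to 3. The groups did not overlap, and the fitted log2 fold change was 2.02 ± 0.604 (edgeR adjusted p = 0.026). It was 1.43 without DMSO replicate 3, with the call lost (adjusted p = 0.11), and the call was also lost without Sardomozide replicate 3 (0.0821). Trim67 shares 140 exon bases on the same strand with Gm16163, a gene that is not among the counted symbols. Reads from the shared bases cannot be told apart.

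The TRIM gene with the highest level per length was Trim35, whose product binds pyruvate kinase M2. It stood at 288 ± 4.64 CPM with Sardomozide and 288 ± 2.98 CPM with DMSO (SD, n = 3 each; log2 fold change 0.00 ± 0.04). Several TRIM proteins act in innate immunity and are induced by interferon. The 30 listed genes of the interferon response summed to 358, 357 and 378 CPM with Sardomozide and 371, 370 and 357 CPM with DMSO. Of these genes, 22 were tested and 0 passed edgeR's test. That is 0% called, against 16.3% of all genes and 7.61% of all genes under 10 CPM. At an unadjusted p under 0.05 there was 1 higher (Irf3, 0.26 ± 0.0874, edgeR adjusted p = 0.054) and 3 lower, Ddx58 among them (−0.24 ± 0.101, 0.111). DESeq2 called 1 of the list higher and limma-voom none. With edgeR, 1 was higher without Sardomozide replicate 2 and 2 were lower without Sardomozide replicate 3.

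Of 54 tested F-box genes, 2 rose, 4 fell and 48 did not pass (11.1% called, against 16.3% of all genes; median log2 fold change −0.0268). By prefix, 3 of 28 Fbxo, 2 of 18 Fbxl and 1 of 8 Fbxw genes were called. Summed levels were 1710, 1710 and 1720 CPM with Sardomozide and 1760, 1740 and 1760 CPM with DMSO. Here too the Sardomozide sums lay below the DMSO sums, by a small margin. The Kelch and ASB sums given below overlapped, the ASB sums only just (352 CPM in Sardomozide replicate 1, 353 CPM in DMSO replicate 2). Among single genes, the groups did not overlap for 33.5% of all genes, and no such share was computed for sums. The rises numbered 2 only with all libraries or without Sardomozide replicate 1, and 1 without any other library. The falls numbered 1 without Sardomozide replicate 3 and 2 without DMSO replicate 2 or 3.

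A pair of sugar-binding F-box genes moved in opposite directions. Fbxo6, whose product recognises N-glycans on misfolded glycoproteins, had 23.7, 26.9 and 26.5 CPM with Sardomozide, against 30.5, 32.3 and 31.5 CPM with DMSO. Fbxo17, of the same sugar-binding subgroup, had 25.2, 24 and 24.2 CPM with Sardomozide, against 19.0, 20.4 and 20.5 CPM with DMSO. Neither gene overlapped between the groups, and the log2 fold changes were −0.29 ± 0.0718 and 0.29 ± 0.0766 (edgeR adjusted p = 0.0077 and 0.0118). The Fbxo17 call was lost without DMSO replicate 1 (adjusted p = 0.0628). Of the rest of the subgroup, looked at after these values were seen, Fbxo2 and Fbxo44 did not pass (−1.16 ± 0.441 and 0.49 ± 0.229, edgeR adjusted p = 0.08 and 0.155) and Fbxo27 was below the count limit.

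The other called F-box genes changed by less. Fbxl5, the iron sensor that marks iron regulatory protein for breakdown, fell by 0.21 ± 0.0614, Fbxo18, a DNA helicase also named Fbh1, by 0.19 ± 0.0567, and Fbxl17, which removes mispaired BTB proteins, by 0.17 ± 0.0556 on the log2 scale. Fbxw11, a receptor for beta-catenin and for the NF-kappaB inhibitor, had a log2 fold change of 0.14 ± 0.048. Their edgeR adjusted p ran from 0.0241 for Fbxl5 to 0.0453 for Fbxw11, and each of the 4 lost its call in 3 to 5 of the 6 fits without a library. Btrc, the close relative of Fbxw11, had a log2 fold change of 0.00 ± 0.0679. Fbxo11, the F-box gene with the highest level per length, had 127, 116 and 113 CPM with Sardomozide and 127, 122 and 122 CPM with DMSO and did not pass.

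Of 36 tested Kelch genes other than Klhl40 and Klhl41, 1 rose, 3 fell and 32 did not pass (11.1% called, against 16.3% of all genes). The median log2 fold change was −0.00504 and the mean 0.0524, of opposite sign. Their summed level overlapped between the groups, at 1280, 1260 and 1290 CPM with Sardomozide and 1260, 1300 and 1270 CPM with DMSO. The rises numbered 2 without Sardomozide replicate 1 or DMSO replicate 2 or 3, and the falls 1 without Sardomozide replicate 2 or DMSO replicate 1 or 3 and 0 without DMSO replicate 2. The 8 Kbtbd genes gave 0 calls with edgeR, with DESeq2 and with limma-voom, and 1 of them, higher, had an unadjusted p under 0.05. Klhl9 (chromosome 4, 88718292 to 88722465), part of a CUL3 ligase that moves Aurora B during mitosis, had 140, 147 and 142 CPM with Sardomozide, against 113, 120 and 119 CPM with DMSO. The groups were well apart, and Klhl9 rose by 22.2% (log2 fold change 0.29 ± 0.0443, edgeR adjusted p = 0.000129). Its partner in that ligase, Klhl13, overlapped between the groups (−0.11 ± 0.116, edgeR adjusted p = 0.579). Exons of Klhl9 are overlapped by Gm26566 on the opposite strand over 661 of 4174 bases.

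Proliferation and myoblast markers were counted beside Klhl9. Of 18 tested (16.7% called, against 16.3% of all genes), 3 rose, Bub1, Mcm2 and Mki67 (log2 fold changes 0.33, 0.23 and 0.16), and 0 fell by edgeR, DESeq2 or limma-voom, with 2 lower at an unadjusted p under 0.05. The rises numbered 0 without Sardomozide replicate 2 or DMSO replicate 1, and 1 without Sardomozide replicate 3 or DMSO replicate 2, and 1 marker fell without Sardomozide replicate 2. The list summed to 883, 966 and 970 CPM with Sardomozide and 924, 918 and 901 CPM with DMSO. Its part in the Klhl9 change was not tested.

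The 3 Kelch genes that fell were Klhl5, Klhl8 and Klhl34, by 0.23 ± 0.0694, 0.27 ± 0.0924 and 0.45 ± 0.15 on the log2 scale (edgeR adjusted p = 0.0292, 0.0472 and 0.0473). Klhl8 is the relative of the worm gene kel-8, which removes rapsyn in Caenorhabditis elegans. Klhl5 overlapped between the groups, at 39.2, 45.5 and 41.8 CPM with Sardomozide and 44.5, 51.0 and 52.4 CPM with DMSO. Each of the 3 calls was lost in 4 or 5 of the 6 fits without a library, and all 3 were lost without DMSO replicate 2 and without Sardomozide replicate 1, where 2 other Kelch genes fell. Klhl30, the Kelch gene with the highest level per length outside the muscle-enriched group, stood at 223 ± 13 CPM with Sardomozide and 232 ± 5.79 CPM with DMSO (SD, n = 3 each) and did not pass.

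Of 13 tested ASB genes other than Asb2, 0 rose, 1 fell and 12 did not pass (7.69% called, against 16.3% of all genes), with 0 rises also by DESeq2 and limma-voom and at an unadjusted p under 0.05. The median log2 fold change was 0.0488 and the mean −0.299, so they differ in sign. The summed level overlapped between the groups, at 352, 375 and 375 CPM with Sardomozide and 338, 353 and 348 CPM with DMSO. Without Sardomozide replicate 1 there was 1 rise (Asb5), and without Sardomozide replicate 3 there were 2 falls. Asb11 (chromosome X, 164436994 to 164459170), whose zebrafish relative removes the Notch ligand Delta, had 15, 6 and 12 counts with Sardomozide, against 26, 31 and 44 counts with DMSO. The groups did not overlap, and Asb11 fell, with a log2 fold change of −1.82 ± 0.43 (edgeR adjusted p = 0.00579, and 0.0472 without DMSO replicate 3). Asb12, also near the count limit, had 3, 0 and 10 counts with Sardomozide and 12, 12 and 14 counts with DMSO and did not pass (edgeR adjusted p = 0.112).

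Asb5 held the highest level per length of its family, at 92.7 CPM per kb with Sardomozide and 85.2 with DMSO. Its libraries were at 154, 185 and 174 CPM with Sardomozide and 151, 164 and 156 CPM with DMSO. The groups overlapped through Sardomozide replicate 1, and Asb5 did not pass (log2 fold change 0.12 ± 0.0577, edgeR adjusted p = 0.173). It passed as a rise without that library (0.19, adjusted p = 0.00895).

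**Figure D4:**
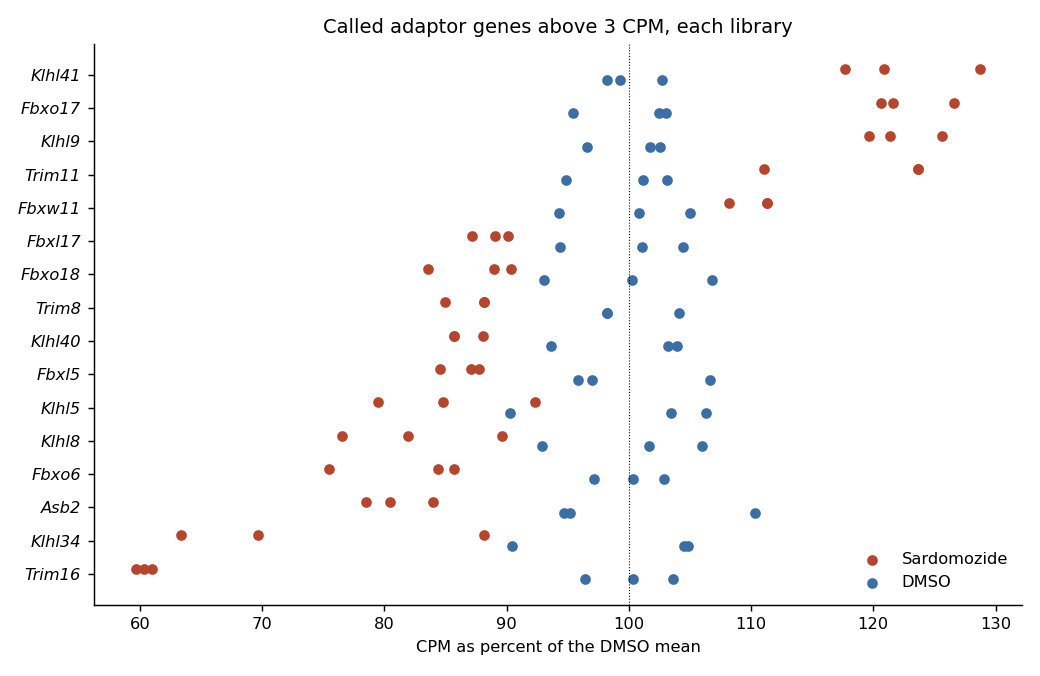
CPM of each library as percent of the DMSO mean (horizontal axis) for the 16 called adaptor genes above 3 CPM, with Sardomozide libraries above DMSO libraries in each row. Trim16 has the widest gap, and Klhl5 is the gene whose groups overlap.

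The cores these adaptors dock on were compared with the same fit. Of 43 tested genes of the cullin-RING core and its NEDD8 cycle, 6 rose and 37 did not pass (14% higher, against 7.88% of all genes, and 14% called either way, against 16.3%). The median log2 fold change was 0.0795, and without DMSO replicate 3 the rises numbered 2. No gene of the list fell by edgeR, DESeq2 or limma-voom, and 1 was lower at an unadjusted p under 0.05. Cul5, the cullin of ASB proteins, had 111, 114 and 115 CPM with Sardomozide, against 91.6, 99.9 and 95.5 CPM with DMSO (log2 fold change 0.24 ± 0.0462, edgeR adjusted p = 0.00123). Its RING partner Rnf7 rose too (0.20 ± 0.0498, edgeR adjusted p = 0.01), as did Cul2, Dcun1d5, the ubiquitin-conjugating enzyme gene Cdc34 (0.25 ± 0.0439) and the signalosome subunit gene Gps1 (0.17 ± 0.045). Cul1 and Cul3, the cullins of F-box and Kelch proteins, had log2 fold changes of 0.00 ± 0.0412 and 0.02 ± 0.0413. The elongin genes Tceb1 and Tceb2 and the F-box partner gene Skp1a did not pass (0.06 ± 0.0611, 0.09 ± 0.0521 and 0.08 ± 0.0458).

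**Figure D5:**
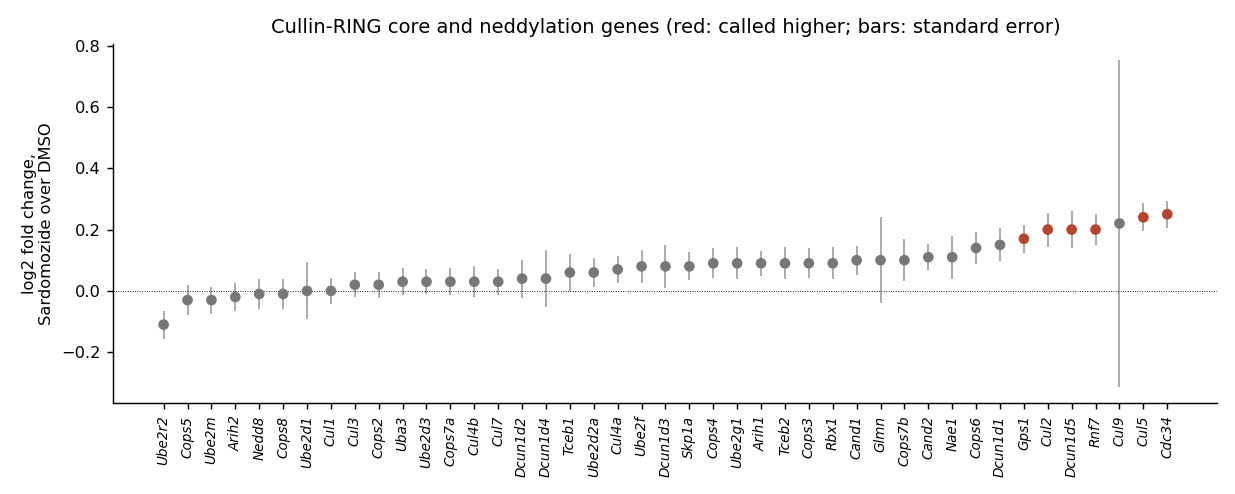
Log2 fold change (Sardomozide over DMSO) with standard error of the 43 tested cullin-RING core and NEDD8 cycle genes, in rising order, with the 6 called genes in red. The called genes lie at 0.17 to 0.25, and Cul1 and Cul3 near 0.

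Adaptors of these and related families that carry other names were also counted. Of 47 tested, 4 rose, 8 fell and 35 did not pass (25.5% called, against 16.3% of all genes), with 2 rises without Sardomozide replicate 1 or DMSO replicate 1 and with 4 falls without DMSO replicate 2 and 5 without DMSO replicate 3 or Sardomozide replicate 3. Ivns1abp, a Kelch protein gene also numbered KLHL39, had 554, 539 and 528 CPM with Sardomozide, against 434, 418 and 416 CPM with DMSO (log2 fold change 0.35 ± 0.0415, edgeR adjusted p = 8.2e-06). Enc1, or KLHL37, rose by 0.34 ± 0.0598. Btbd2 and Socs5, which encode a BTB protein and a SOCS-box inhibitor of cytokine signals, fell by 0.32 ± 0.0685 and 0.28 ± 0.0541 on the log2 scale. Keap1, the CUL3 adaptor that controls NRF2, had a log2 fold change of −0.02 ± 0.0503.

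Of the 5 atrophy ligases left out of the set, Fbxo32 and Fbxo21 fell (log2 fold changes −0.27 ± 0.0459 and −0.22 ± 0.0681, edgeR adjusted p = 0.000392 and 0.0282) and Fbxo40 rose (0.64 ± 0.175, 0.0184, lost without Sardomozide replicate 1 or DMSO replicate 1 or 2). The Fbxo21 call was lost without Sardomozide replicate 1 or 3 or DMSO replicate 1 or 3. Trim63 and Fbxo30 did not pass (0.06 ± 0.0622 and 0.02 ± 0.0616). Of the 5, 60% were called, against 16.3% of all genes.

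The 61 symbols under the count limit were 28 TRIM, 20 F-box, 8 Kelch and 5 ASB genes, among them most of the numbered Fbxw genes and the Trim43 copies. Just inside the limit were Trim17 and Trim34b, which the filter of the test did not keep, and just outside were Fbxw10 and Trim34a. Trim34b had 10, 12 and 4 counts with Sardomozide and 10, 3 and 5 with DMSO, and its near copy Trim34a had 6, 8 and 7 with Sardomozide and 4, 2 and 9 with DMSO. Counts of such copies, as of Trim12c beside Trim12a, are uncertain because reads that match more than 1 copy could have been split or dropped.

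Most markers of other cell types were low or absent, and the cells that gave the Col1a1 and Dcn reads cannot be told in bulk RNA. Of 22 markers, 9 were tested, 1 rose (Bglap, with 12, 14 and 14 counts with Sardomozide against 1, 4 and 1 with DMSO) and 1 fell (Dcn, 11.0 CPM with Sardomozide against 18.8 CPM with DMSO), and 6, Ptprc and Adipoq among them, had no count in any library. Of the 9 tested, 22.2% were called, against 16.3% of all genes. That share counts Bglap, which passed the filter of the test only through its Sardomozide libraries. The list had 0 rises with DESeq2, with no filter and with the stricter filter, so this rise depends on the method and filter. The Bglap rise was lost without Sardomozide replicate 2 or 3 or DMSO replicate 1 or 3, and 2 markers fell without DMSO replicate 2. Their sum, nearly all from Col1a1, was 2280, 3130 and 2770 CPM with Sardomozide and 3130, 2610 and 3160 CPM with DMSO. Their part in the adaptor results was not tested.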

How the data were processed

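The authors deposited raw read counts per gene symbol, 1 file per library. STAR, StringTie and DESeq2, with the builds GRCm38 and mm10, are named in the submitters' processing notes. Tool versions and roles, annotation, strand and multi-mapping settings were not given in the sources used.

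Genes were filtered with filterByExpr (10 counts scaled to library size, 15 in total), scaled by TMM and tested across all 13076 genes with edgeR 4.0.16 (glmQLFit, robust, treatment as the single term, two-sided) in R 4.3.3, with Benjamini-Hochberg adjustment. Genes with adjusted p under 0.05 were called. The ± after a log2 fold change is its standard error (fold change over the root of F), and after CPM the SD of 3 libraries. Levels per length use exon lengths and coordinates of GENCODE M21 (GRCm38), which names 142 of the 144 members (1 more through a synonym). Promoters are from RefSeq (GRCm38.p6), which gave windows for 15 of the 20 called or muscle-enriched members. A count of 0 allows up to 3 counts, 0.0823 to 0.118 CPM (counting error only). Replicate libraries differed beyond sampling noise (chi-square per degree of freedom 5.45 to 16.1), and all 6 were kept.

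Named were the muscle-enriched members, per family the called members with the 5 smallest adjusted p in each direction, called members past 1.5-fold, the highest level per length, and the leading 4 called genes per added list (2 where none was called), with the 5 atrophy ligases. Klhl13, Fbxl12os, Fbxo2, Fbxo44, Asb12, Klhl28, Btrc, Keap1, Cul1, Cul2, Cul3, Dcun1d5, Tceb1, Tceb2, Skp1a, Myh7, Trim34a and Trim34b were added after their values were seen. The members and lists were chosen with earlier results of these data known. Alternatives were DESeq2 1.42.0, limma-voom (limma 3.58.1), RLE, unscaled libraries, no filter, a filter at 50 counts, a replicate block, estimation without robustness and leaving out each library. The same alternatives were chosen for the added lists only after seeing the data. Scripts were checked on simulated data.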

Additional observations from a re-analysis of the deposited data

How the results depend on the processing

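The direction of no called result turned under any of the 14 alternatives. Of the 18 called members, 2 that rose and 6 that fell were called in all 6 fits without a library, and 2 and 5 of them under every alternative. The exception is Asb11, which the stricter filter did not test.

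Some counts moved by more than 1.5 times. The F-box rises (2) numbered 1 with DESeq2, limma-voom, the replicate block and estimation without robustness. The TRIM rises (2) numbered 1 and the ASB falls (1) 0 with the stricter filter, and the ASB falls numbered 2 with limma-voom. The Kelch rises (1) numbered 3 with no filter and 2 with the replicate block, and the Kelch falls (3) numbered 1 with no scaling factors, DESeq2 and estimation without robustness. Adaptors under other names gave 2 rises (not 4) with the replicate block. Interferon genes gave 1 rise (not 0) with DESeq2 and with no filter, and muscle markers 4 rises (not 2) with each of these. Markers of other cell types gave 0 rises (not 1) with DESeq2, no filter and the stricter filter, and 2 falls (not 1) with no filter. The cause was not tested. Fits without filters test other genes.

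Without a library, with fewer samples, rises and falls over all genes ran from 620 to 927 and from 706 to 1025, and over the members from 3 to 7 and from 7 to 11. By family the ranges of rises and falls were 1 to 2 and 1 to 3 for F-box, 0 to 2 and 2 to 3 for TRIM, 0 to 1 and 1 to 2 for ASB, and 1 to 2 and 0 to 2 for Kelch genes. For the lists they were 2 to 6 and 0 for the cullin core, 2 to 4 and 4 to 9 for adaptors under other names, 0 to 1 and 0 to 2 for interferon, 2 to 4 and 2 to 6 for muscle, 0 to 4 and 0 to 1 for proliferation, 0 to 1 and 1 to 2 for other cell types, and 0 to 1 and 1 to 2 for the atrophy ligases.

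Same-numbered libraries did not deviate together (correlations 0.0219, −0.0233 and −0.0178). With 3 libraries per group this cannot settle whether a number marks a shared culture or day, which the labels do not say. With the replicate block, 855 genes rose and 965 fell over all genes, and 6 and 10 members. The median standard error was 0.186 for members under 10 CPM and 0.0646 for the others, and the part of depth in this was not tested.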
